A study of Mus musculus with 6 samples.

Results

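The genes described here belong to the canonical WNT pathway and to the TCF factors through which it acts on DNA. The 10 genes were chosen by name and Ensembl identifier from pathway knowledge, with earlier results of these data known. The array table holds a row for 9 of them, among 17144 genes in all. These are the TCF/LEF factors Tcf7l1, Tcf7l2 and Lef1, the gene of beta-catenin (Ctnnb1), the intracellular inhibitors Axin2 and Nkd1, and the secreted inhibitors Sfrp1, Sfrp2 and Dkk1. Tcf7 was not analysed here. RNA was measured on Affymetrix arrays in 3 biological replicates of ESCs and 3 of NPCs, with 1 array for each replicate. Both cell types were wild type and of the 129SvJae/C57B6 F1 background. The ESCs were the blastocyst-derived line V6.5, kept in serum with LIF. The NPCs were derived from those ESCs in vitro and grown in N3 medium with bFGF and EGF, so that both groups trace back to 1 ESC line. The sources used here do not say whether the NPC replicates came from separate derivations, and the p-values measure only the spread between these arrays.

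When no WNT ligand is present, a cytoplasmic complex that contains AXIN and the kinase GSK3 marks beta-catenin for destruction. Ligand binding to Frizzled and LRP receptors stops this, and beta-catenin accumulates, enters the nucleus and binds TCF/LEF proteins, which sit on DNA at WNT target genes. TCF7L1, also called TCF3, acts mainly as a repressor in ESCs, where it shares many sites with OCT4, SOX2 and NANOG, and WNT signals help to keep ESCs undifferentiated. In the developing nervous system the same pathway governs the growth and patterning of progenitors.

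Expression is given as the authors' log2 value for each gene, made by robust multi-array average (RMA). A call means that limma gave an adjusted p under 0.05, after Benjamini-Hochberg adjustment over the 17144 genes, and that the means lay more than 1.5-fold apart. SE stands for the standard error of a difference in that fit. Of the 9 genes, 5 were called, of which 3 had risen and 2 had fallen in NPCs, against 34.1% of all genes called in either direction, 15.4% higher and 18.7% lower. By the adjusted p alone 7 of the 9 passed, against 49.0% of all genes. In 7 of the 9 genes the values of the NPC arrays and of the ESC arrays did not overlap, against 58.7% of all genes. The cell types thus differed widely over the whole table, and the share of WNT genes that differed is not read as particular to them. The median difference, NPC minus ESC, was -0.38 over the 9 genes and -0.036 over all genes. Centring each array on its own median moved the all-gene value to 0.12, and the called genes from 2638 that rose and 3213 that fell to 3302 and 2642. No WNT gene changed sign under that scaling.

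NPC replicate 3 stood apart from the other NPC arrays. It correlated with them at r = 0.978 to 0.979 across genes, while NPC replicates 1 and 2 correlated at r = 0.997 and the ESC arrays at 0.996 to 0.998. It lay more than 1 on the log2 scale from the mean of NPC replicates 1 and 2 at 4.0% of all genes, and at 2 of the 9 WNT genes, Lef1 and Sfrp2. Results are therefore given with and without that array where it moves them. As a check of the labels, Pou5f1, the pluripotency factor OCT4, stood between 12.4 and 12.5 on ESC arrays and between 3.61 and 3.83 on NPC arrays. The 7 of 9 neural progenitor markers that could be named were all above every ESC array in NPCs, but nearly all names come from a list of genes that rise in NPCs. The 3'-minus-5' difference of the control probe sets, a sign of RNA integrity, was -0.078 to -0.053 in ESCs and -0.16 to -0.099 in NPCs for Gapdh. For beta-actin it was 0.36 to 0.45 in ESCs and 0.26 to 0.43 in NPCs. The part of these differences in the results was not tested.

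**Figure D1:**
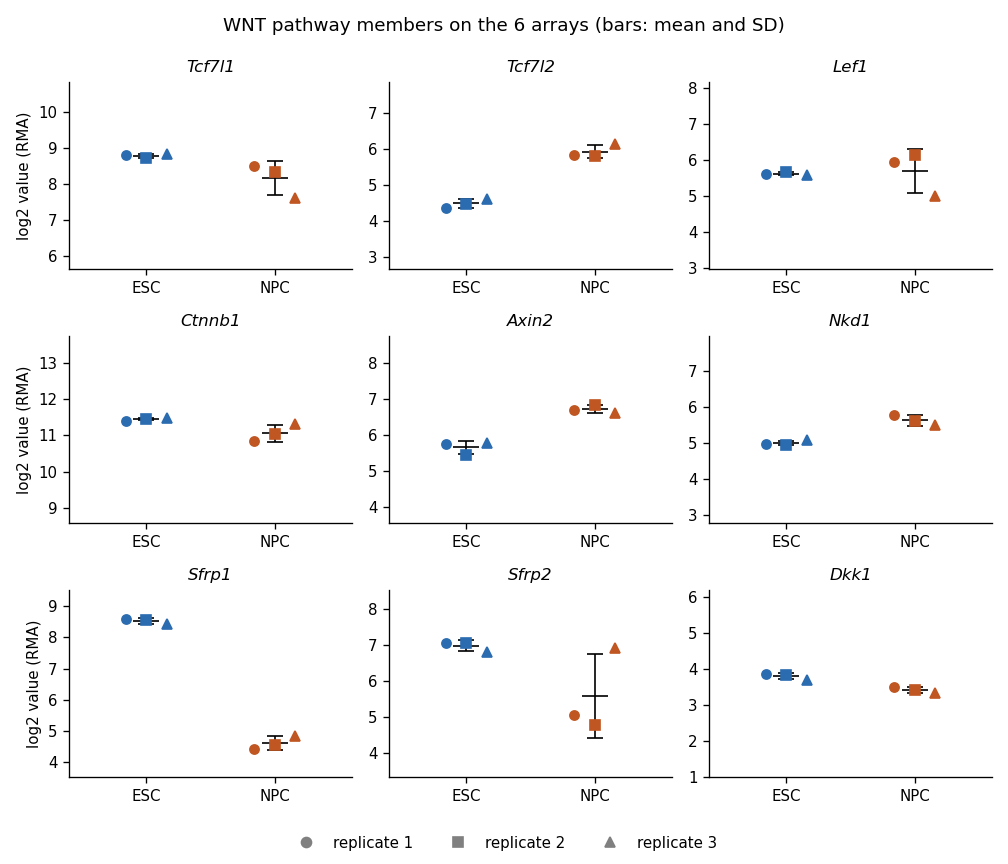
Log2 RMA values of the 9 WNT pathway genes on each array, with ESCs in blue and NPCs in orange; each marker shape is a replicate number, the horizontal bar is the mean and the whisker the SD of 3 arrays, and each panel has its own value range. Sfrp1 separates the cell types most widely, and NPC replicate 3 (triangle) leaves the other NPC arrays for Lef1 and Sfrp2.

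The TCF/LEF factors moved in different directions between the cell types. Tcf7l2 rose in NPCs, Tcf7l1 was lower there at the edge of the thresholds, and Lef1 gave no common direction over the NPC arrays. All of them encode HMG-box proteins that bind beta-catenin through their N terminus.

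Tcf7l2 (ENSMUSG00000024985_at), also called TCF4, is the TCF factor best known from the intestine and from the thalamus and midbrain. Its log2 value was 4.38, 4.48 and 4.62 on the ESC arrays and 5.84, 5.81 and 6.14 on the NPC arrays. Every NPC array was above every ESC array, and replicate 3 was the highest. The mean went from 4.49 ± 0.12 (SD, n = 3 arrays) to 5.93 ± 0.18 (SD, n = 3 arrays), and rose by 1.44 (SE 0.12, limma adjusted p = 5.47e-05), or 2.71-fold. The gene was called under all 16 alternatives in which it was tested, with differences of 1.33 to 1.59. Its ESC mean lay below the median of all genes on each ESC array (5.75 to 5.76), so the fold starts from a low signal.

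Tcf7l1 (ENSMUSG00000055799_at) read 8.80, 8.72 and 8.83 in ESCs and 8.50, 8.33 and 7.61 in NPCs. All NPC arrays were below all ESC arrays, and replicate 3 was the lowest by a wide margin. From a mean of 8.78 ± 0.057 (SD, n = 3 arrays) to one of 8.15 ± 0.47 (SD, n = 3 arrays), Tcf7l1 fell by 0.63 (SE 0.22, limma adjusted p = 0.0491), which is 1.55-fold. Both the p and the fold lie just inside the thresholds, and the call was lost under 11 of 17 alternatives, where the adjusted p ranged from 0.00794 to 0.244. With NPC replicate 3 left out the difference was -0.36 with an adjusted p of 0.00794 in limma, but that is 1.29-fold and under the fold threshold. With each array centred on its median it was -0.48 (adjusted p = 0.108, limma).

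Lef1 (ENSMUSG00000027985_at) encodes the factor that itself is often induced by WNT signals. It stood at 5.63, 5.67 and 5.59 in ESCs, and at 5.94, 6.14 and 4.99 in NPC replicates 1, 2 and 3. NPC replicates 1 and 2 were thus above every ESC array, and replicate 3 was below every one of them. The difference of means was 0.062 (95% confidence interval -0.59 to 0.72, adjusted p = 0.882, limma). Without NPC replicate 3 it was 0.41 (adjusted p = 0.00415, limma), which is 1.33-fold and not called. Without NPC replicate 1 or 2 it turned to -0.064 and -0.16.

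**Figure D2:**
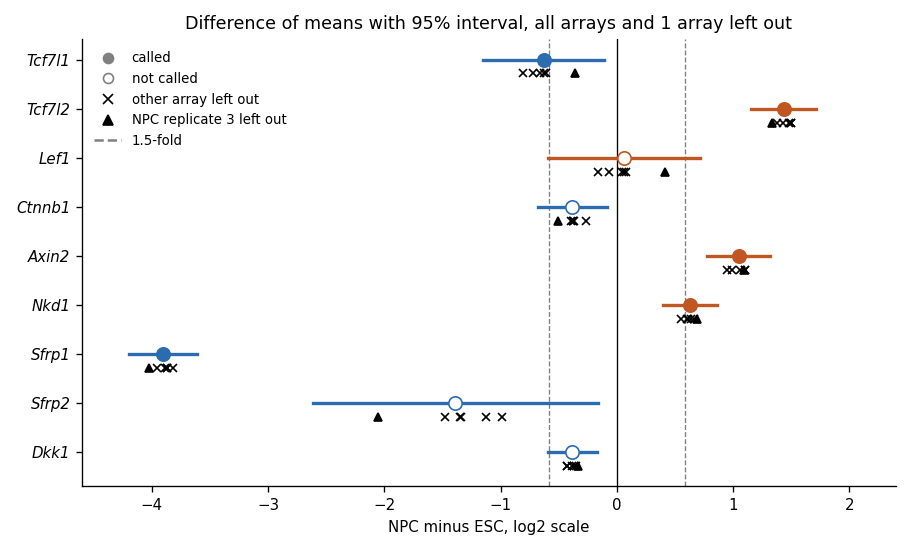
Difference of means, NPC minus ESC, on the log2 scale for each WNT pathway gene, with its 95% confidence interval from limma on all 6 arrays; filled circles were called, crosses and triangles give the difference with 1 array left out, and dashed lines mark 1.5-fold. The interval of Sfrp2 reaches from -2.62 to -0.16, and leaving out NPC replicate 3 moves Sfrp2, Lef1 and Tcf7l1 most.

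Ctnnb1 (ENSMUSG00000006932_at), the gene of beta-catenin, was a little lower in NPCs. Beta-catenin is also a part of cadherin junctions, and the pathway regulates it mainly through protein stability, which the arrays do not measure. The values were 11.42, 11.45 and 11.48 in ESCs and 10.84, 11.05 and 11.31 in NPCs. The NPC arrays were all below the ESC arrays, replicate 3 by little. The difference of -0.38 (95% confidence interval -0.68 to -0.086, adjusted p = 0.0396, limma) is 1.30-fold, and the gene was not called because of its size. With median centring the difference was -0.23 (adjusted p = 0.175, limma), and with NPC replicate 3 left out -0.50 (adjusted p = 0.00153, limma). With any other array left out, the adjusted p in limma was 0.0909 to 0.11, so the p also depended on the setting.

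Axin2 and Nkd1, which many cell types switch on in response to WNT and which then act as feedback inhibitors, both rose in NPCs. AXIN2 is a scaffold of the complex that destroys beta-catenin, and NKD1 binds the Dishevelled proteins. Axin2 (ENSMUSG00000000142_at) read 5.75, 5.45 and 5.76 in ESCs and 6.68, 6.82 and 6.61 in NPCs. The groups did not overlap, and the NPC arrays lay within 0.22 of each other. From 5.65 ± 0.18 (SD, n = 3 arrays) to 6.70 ± 0.11 (SD, n = 3 arrays), the rise was 1.05 (SE 0.11, limma adjusted p = 0.000225), or 2.07-fold. It was called under all 17 alternatives.

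Nkd1 (ENSMUSG00000031661_at) stood at 4.97, 4.95 and 5.07 in ESCs and at 5.78, 5.60 and 5.49 in NPCs, again with no overlap. The rise of 0.63 (SE 0.098, limma adjusted p = 0.00144) is 1.54-fold, little above the threshold. Without NPC replicate 1 it was 0.55 (adjusted p = 0.00441, limma) and under 1.5-fold. Nkd1 was called under 14 of the 16 alternatives in which it was tested.

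Because Axin2 and Nkd1 rose together, the 250 bases before their annotated start sites are shown, from RefSeq on GRCm38.p6. The windows are chr11:108920099-108920348 (plus strand) for Axin2 and chr8:88527383-88527632 (plus strand) for Nkd1, both written 5′ to 3′.
Axin2: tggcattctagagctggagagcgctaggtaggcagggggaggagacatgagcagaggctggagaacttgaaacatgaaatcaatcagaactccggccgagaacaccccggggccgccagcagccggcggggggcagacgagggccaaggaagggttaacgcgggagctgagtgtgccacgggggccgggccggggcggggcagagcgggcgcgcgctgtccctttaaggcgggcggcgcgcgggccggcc
Nkd1: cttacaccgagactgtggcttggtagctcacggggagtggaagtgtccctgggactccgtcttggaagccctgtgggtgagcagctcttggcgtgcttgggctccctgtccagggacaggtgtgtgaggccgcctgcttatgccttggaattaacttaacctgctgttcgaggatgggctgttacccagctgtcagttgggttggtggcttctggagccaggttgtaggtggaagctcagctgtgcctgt
Neither window holds CTTTGAT or CTTTGAA, forms of the TCF/LEF core, on either strand. Of all 32851 such windows in RefSeq, 7.48% hold at least 1 of these forms, so their absence is the usual case. RefSeq gave windows for 8 of the 9 genes, 13 windows in all, and 1 of these held CTTTGAT or CTTTGAA. The absence of these letters says nothing about binding at other positions of the genes.

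The secreted inhibitors were all lower in NPCs by their means, but with different certainty. SFRP proteins carry a Frizzled-like domain and bind WNT ligands outside the cell, while DKK1 blocks the LRP co-receptors. Sfrp1 was by far the most changed of the 9 genes, Sfrp2 was lower in 2 of the 3 NPC arrays, and Dkk1 differed little.

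Sfrp1 (ENSMUSG00000031548_at) read 8.59, 8.56 and 8.42 in ESCs and 4.45, 4.55 and 4.86 in NPCs. The groups were several log2 units apart and narrow, with replicate 3 the highest NPC array. From a mean of 8.52 ± 0.093 (SD, n = 3 arrays) to one of 4.62 ± 0.21 (SD, n = 3 arrays), Sfrp1 fell by 3.90 (SE 0.12, limma adjusted p = 6.12e-07). This is 15.0-fold. Leaving out each array in turn kept the difference between -4.02 and -3.82, and the gene was called under all 17 alternatives. On bulk arrays, fewer cells that express a gene and less RNA per cell cannot be told apart. None of the 6 feeder fibroblast markers in the marker list set up for this report could be named, so their level is not known here.

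Sfrp2 (ENSMUSG00000027996_at) stood at 7.06, 7.07 and 6.80 in ESCs. NPC replicates 1 and 2 read 5.06 and 4.78, while replicate 3 read 6.93, inside the ESC range. The difference over all arrays was -1.39 (95% confidence interval -2.62 to -0.16, adjusted p = 0.0628, limma) and was not called. Without NPC replicate 3 it was -2.06 (adjusted p = 2.03e-06, limma), or 4.16-fold, and was called. Sfrp2 was thus lower in NPC replicates 1 and 2 and at the ESC level in replicate 3.

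Dkk1 (ENSMUSG00000024868_at) read 3.86, 3.83 and 3.70 in ESCs and 3.50, 3.42 and 3.32 in NPCs. The groups did not overlap, but the difference was -0.38 (95% confidence interval -0.59 to -0.17, adjusted p = 0.00932, limma), 1.30-fold and below the fold threshold. With median centring it was -0.23 (adjusted p = 0.0661, limma). The mean of Dkk1 over the 6 arrays lay under the 25th percentile of all genes, and detection calls were not used here. The window of Dkk1 is chr19:30549497-30549746 (minus strand of GRCm38.p6, written 5′ to 3′ on that strand). It is shown because it was the only one of the 13 with CTTTGAT or CTTTGAA.
Dkk1: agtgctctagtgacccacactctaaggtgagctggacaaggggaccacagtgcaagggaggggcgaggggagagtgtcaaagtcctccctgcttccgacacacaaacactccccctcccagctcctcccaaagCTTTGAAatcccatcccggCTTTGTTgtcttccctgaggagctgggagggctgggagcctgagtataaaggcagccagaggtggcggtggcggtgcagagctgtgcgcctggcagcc
The capitals mark CTTTGAA, which begins 117 bases before the start site, and CTTTGTT, the SOX2 core motif, which begins 98 bases before it. The motifs share their leading CTTTG but do not overlap here. Of the 13 windows 2 held CTTTGTT, this one and a window of Tcf7l2 (chr19:55895071-55895320), where it begins 14 bases before that start site. The other window of Tcf7l2, chr19:55741560-55741809, before another annotated start, held no match. Over all windows 4.46% hold CTTTGAA and 5.03% hold CTTTGTT, and a match of this length is a description and not a binding site.

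**Figure D3:**
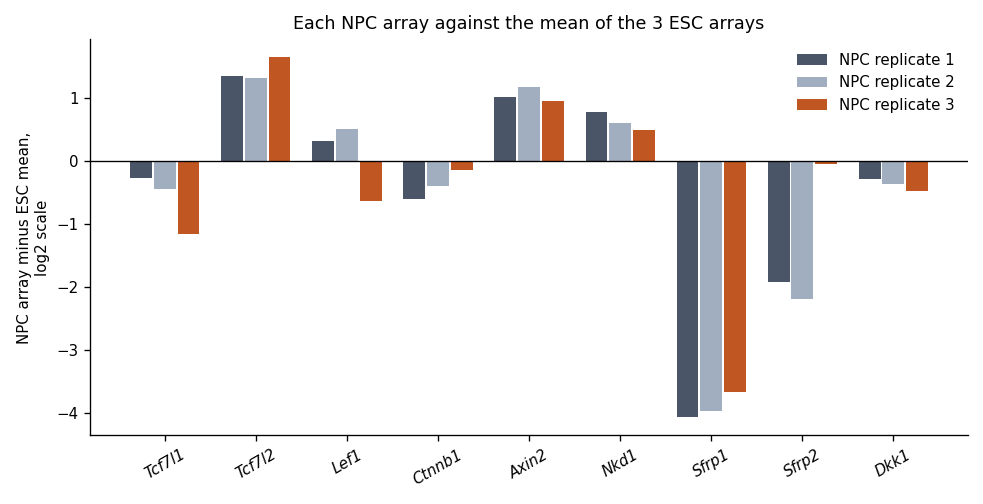
Each NPC array minus the mean of the 3 ESC arrays on the log2 scale, by gene, with 1 bar per NPC replicate. Tcf7l2, Axin2, Nkd1 and Sfrp1 kept similar heights over the replicates, while replicate 3 had the opposite sign for Lef1 (-0.64 against 0.31 and 0.51) and nearly no difference for Sfrp2 (-0.049).

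The WNT genes can be grouped by how much NPC replicate 3 differed from the other NPC arrays. For Axin2, Nkd1 and Dkk1 it was within 0.20 of the mean of replicates 1 and 2, and for Tcf7l2, Sfrp1 and Ctnnb1 it was 0.31, 0.36 and 0.37 above. The gap of replicate 3 from that mean was -0.81 for Tcf7l1, -1.05 for Lef1 and 2.01 for Sfrp2. The gap between NPC replicates 1 and 2 was at most 0.28 for each of the 9 genes. Some markers of other cell types also differed in replicate 3. Of 6 neuron markers 2 could be named, and both were lower there, Dcx at 3.76 against 4.86 and 5.06 and Syt1 at 4.90 against 6.93 and 7.02. Of 5 astrocyte markers 1 could be named, S100b, which was higher there, at 7.02 against 6.32 and 6.13. Of 5 oligodendrocyte markers 1 could be named, Cnp, which lay close to NPC replicate 1, at 7.06 against 7.13 and 7.29. The part of these differences in the values of Tcf7l1, Lef1 and Sfrp2 was not tested.

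A list of 99 other WNT pathway genes was set up by role, and 18 of them could be named on the arrays. Nearly all names come from a table sorted by the rise in NPCs, so it is no finding that these 18 were higher in NPCs. Their values are a description with no test. No gene of the list that fell, and none of its 12 other inhibitors, could be named. Wls, which carries WNT ligands to the cell surface, had the widest difference, with a mean of 4.78 ± 0.27 (SD, n = 3 arrays) in ESCs and 9.03 ± 0.50 (SD, n = 3 arrays) in NPCs. The target gene Myc followed, from 6.19 ± 0.12 to 10.12 ± 0.040, and the receptor Fzd1, from 4.74 ± 0.35 to 8.48 ± 0.079. These are rises of 4.25, 3.93 and 3.74 on the log2 scale.

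Among the other roles, the largest values belonged to the following genes. The co-repressor Tle2, a Groucho protein that TCF factors recruit when beta-catenin is absent, differed by 3.47. The planar polarity cadherin Celsr2 differed by 1.45, the kinase Gsk3b by 1.5 and the R-spondin receptor Lgr5 by 0.92. Celsr2, Gsk3b and Lgr5 were each the only named gene of their role, so they were compared with no other. Lgr5 is, like Axin2, a known WNT target in several tissues. The means of Lgr5, 4.26 in ESCs and 5.18 in NPCs, lay below the median of all genes on the arrays of either cell type. The ligand Wnt5a read 4.52, 4.45 and 4.37 in ESCs and 6.0, 5.77 and 6.93 in NPCs, and Wnt7a 4.33, 4.31 and 4.69 in ESCs and 5.28, 5.5 and 7.48 in NPCs. Both ligands were highest in NPC replicate 3, by 1.04 and 2.09 over the mean of replicates 1 and 2, and the receptor Fzd9 by 1.13. The other 15 named pathway genes lay within 0.84 of that mean in replicate 3. Over all genes, 4.0% lay more than 1 from it in either direction. Naming through a table sorted by the rise in NPCs can favour genes that are high in replicate 3. These gaps are therefore no finding either.

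**Figure D4:**
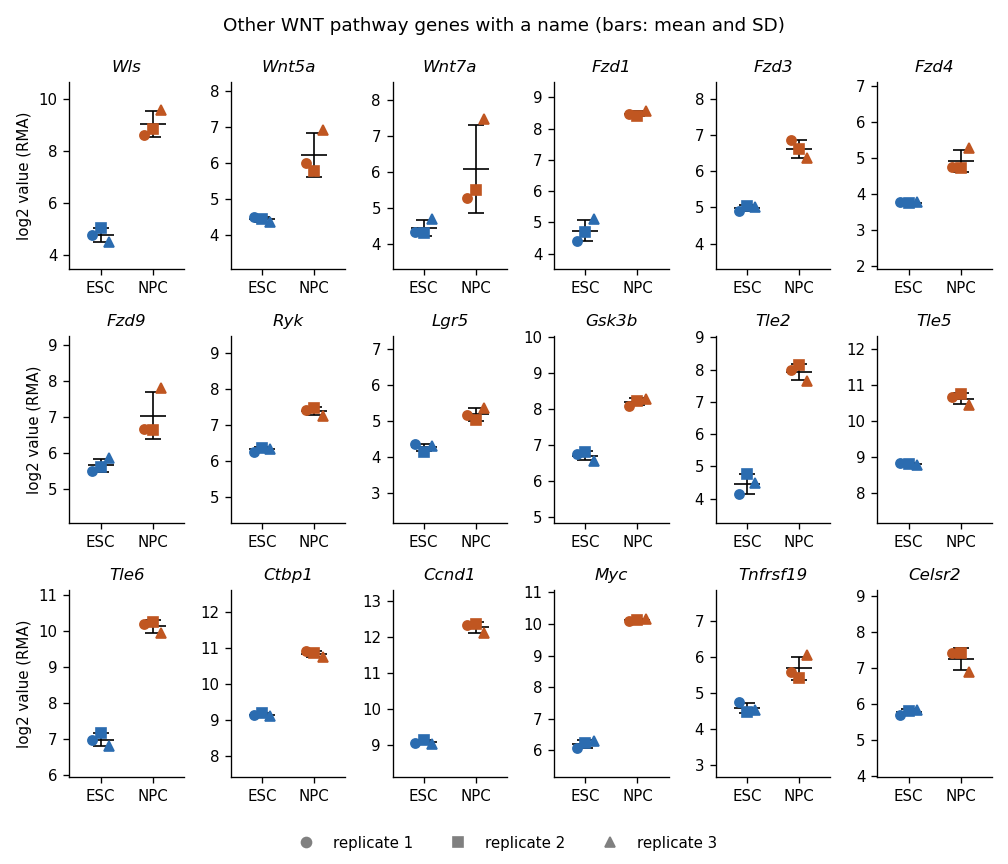
Log2 RMA values on each array for the 18 other WNT pathway genes that could be named, drawn as in the plot of the 9 genes, with each panel on its own value range. All are higher in NPCs, which is no finding, since nearly all names come from a table sorted by that rise. In NPC replicate 3 (triangle) Wnt5a, Wnt7a and Fzd9 stand more than 1 above the mean of the other NPC arrays. That is no finding either, since such a table can favour genes high in replicate 3.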

How the data were processed

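Total RNA of 6 samples was hybridized to Affymetrix mouse arrays. The authors extracted images with GeneChip Operating Software 1.4 and deposited log2 values made by RMA (background correction, normalization between arrays, summary of probes per Ensembl gene with an updated annotation). Neither the version of that annotation nor its build is given in the sources used here. Of 17208 rows, 64 control probe sets were left out of the tests. Groups and replicate numbers came from the labels. limma 3.58.1 in R 4.3.3 (lmFit, eBayes, no covariates) was fitted on all 17144 genes, and the moderated Welch test of the methods was an alternative. In a simulation of the NPC against ESC comparison with 17144 genes, limma called 76 of 100 genes changed by 1 on the log2 scale, 98 of 100 changed by 2, and 4 unchanged genes. Its noise was normal, with the same spread in both cell types, and no array stood apart. Far fewer genes were changed in it than the 5851 called in the data, so these counts do not carry over to the real comparison. Arrays carry no molecule counts, so the number of arrays limits the precision, and an exact permutation test of 3 against 3 cannot go below p = 0.1. Names of the 9 genes were given with their identifiers. For 2004 genes, Tcf7l2 and Axin2 among them, all array values matched a named row of the study's tables within 0.0001, and other genes have no name here. All 9 genes are named in the text, and of the pathway list those with the largest difference in their role or over 1 away in NPC replicate 3. Members and lists were chosen with earlier results of these data known. No correlation between genes over arrays is given, since the arrays form 2 clusters. Alternatives were other variance models, the replicate block, quantile normalization, median centring, filters on low values, other fold thresholds and each array left out. Python 3.11.15, pandas 2.3.3 and matplotlib 3.10.9 were used for tables and plots.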

Additional observations from a re-analysis of the deposited data

How the results depend on the processing

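Tcf7l2, Axin2 and Sfrp1 kept their direction and their call under every alternative run on them. Tcf7l1 was no longer called under the moderated Welch test and the separate variances (both -0.63, adjusted p = 0.053 and 0.244), quantile normalization (-0.56), median centring (-0.48) or a fold over 2 (-0.63). Leaving out each array in turn gave -0.81 to -0.36, and it was called only without NPC replicate 1. Nkd1 was not called with a fold over 2 (0.63), and with each array left out lay between 0.55 and 0.69. Lef1 lay between -0.16 and 0.41 with each array left out and was called in none, while Sfrp2 lay between -2.06 and -0.98 and was called only without NPC replicate 3. Ctnnb1 and Dkk1 (both -0.38) were called only with no fold threshold. The number of the 9 genes called was 5. It was 4 under the moderated Welch test, separate variances, the replicate block, quantile normalization and median centring. With each array left out it was 4 to 5, and with no fold threshold 7. It was 3 both with the filter at the median, which leaves out Tcf7l2, Lef1, Nkd1 and Dkk1, and with a fold over 2. The filter at the median left 1 higher in NPCs. The number lower in NPCs was 2, then 1 under the moderated Welch test, separate variances, both scalings and a fold over 2, 4 with no fold threshold, and 1 to 2 with each array left out.

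Among all genes, 5851 were called (2638 higher, 3213 lower in NPCs), and with a fold over 2 there were 3592, with 1615 higher and 1977 lower. Of the called genes, the share higher in NPCs was 45.1% in the deposited values, 50.6% after quantile normalization and 55.6% after median centring. Replicate numbers occur in both cell types, but deviations from the group means correlated at 0.026, 0.011 and -0.0064 for the pairs numbered 1 to 3. No pairing by number was visible in these correlations, but they cannot show whether a small shared effect exists. With a replicate block, Tcf7l1 had a difference of -0.63 and an adjusted p of 0.0571 in limma and was not called, which left 1 of the 9 genes lower in NPCs, and no other of the 9 changed its call. A low signal, such as that of Dkk1, of Tcf7l2 and Nkd1 in ESCs and of Sfrp1 in NPCs, limits what the arrays can show about the size of a fold.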
